A study of Mus musculus with 13 samples.

Results

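The 8 genes described here encode the insulin-like growth factors (IGFs) and the proteins that carry them: the ligands Igf1 and Igf2, and the binding proteins Igfbp2, Igfbp3, Igfbp4, Igfbp5, Igfbp6 and Igfbp7. They were chosen by name, by mapping mouse Ensembl identifiers to gene symbols, and all 8 were found among the 42416 identifiers of the count files. RNA sequencing was done on interscapular brown adipose tissue (iBAT) in 13 libraries. Of these, 8 were labelled iFAXLKO, from Cre-positive mice with floxed Axl, and 5 were labelled WT, from Cre-negative mice with the same floxed Axl. Both groups ate a high-fat diet (HFD) ad libitum at room temperature and were given tamoxifen every 3 weeks. AXL is a receptor tyrosine kinase, and per the methods of the study the Cre was a tamoxifen-inducible Cre driven from a bacterial artificial chromosome around Adipoq, a promoter of adipocytes. Recombination was therefore directed to adipocytes, whereas the RNA came from whole depots with all their other cells. The labels give neither age nor sex. Per the study the mice were female littermates and were young adults when tamoxifen was first given.

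IGF1 and IGF2 are small secreted proteins related to insulin. IGF1 is made in liver and in many peripheral tissues under growth hormone, IGF2 acts mainly in fetal growth, and both signal through the type 1 IGF receptor (Igf1r), while the type 2 receptor (Igf2r) takes IGF2 up for degradation. Outside cells most IGF is held by binding proteins, which store it, keep it from its receptor or release it when proteases cut them, and in adipose tissue ligands and binding proteins come largely from stromal, vascular and immune cells as well as from adipocytes.

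Sequences upstream of the transcription start are shown for 3 members whose levels mark the ends of the range or that lie next to each other: Igfbp7, which had the highest level per length, Igfbp2, which was close to absent, and Igfbp5, the second highest, which lies beside Igfbp2. Each run is the 250 bases before a RefSeq start on GRCm38.p6, written 5′ to 3′ on the strand of the gene, with CG dinucleotides in capitals.
Igfbp7, chr5:77408046-77408295, minus strand: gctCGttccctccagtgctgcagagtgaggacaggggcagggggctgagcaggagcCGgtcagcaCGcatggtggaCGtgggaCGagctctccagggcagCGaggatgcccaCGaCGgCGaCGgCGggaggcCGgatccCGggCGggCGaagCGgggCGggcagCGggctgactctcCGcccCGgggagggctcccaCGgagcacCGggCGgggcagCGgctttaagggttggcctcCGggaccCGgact
Igfbp2, chr1:72824230-72824479, plus strand: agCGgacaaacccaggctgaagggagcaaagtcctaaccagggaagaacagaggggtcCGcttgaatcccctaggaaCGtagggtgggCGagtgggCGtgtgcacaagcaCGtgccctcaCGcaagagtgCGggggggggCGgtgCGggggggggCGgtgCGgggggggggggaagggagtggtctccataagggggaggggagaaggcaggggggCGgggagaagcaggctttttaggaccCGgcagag
Igfbp5, chr1:72874866-72875115, minus strand: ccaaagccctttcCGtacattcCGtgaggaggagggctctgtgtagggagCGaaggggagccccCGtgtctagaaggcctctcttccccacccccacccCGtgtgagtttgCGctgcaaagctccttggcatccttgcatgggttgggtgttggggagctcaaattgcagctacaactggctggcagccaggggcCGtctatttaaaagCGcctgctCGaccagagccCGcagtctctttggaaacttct
The Igfbp7 window held 26 CG dinucleotides, and 9.6% of all 32851 windows of this length held as many or more. The Igfbp2 window held 14 (29.4% of all windows had at least this number) and the Igfbp5 window 10 (37.8%), against a median of 6. The bases after this Igfbp2 start were not found in a GENCODE M21 transcript of the gene, whereas those after a second RefSeq start of Igfbp2 were, and the window of that start held 11 CG dinucleotides (35.6%). Among the members not printed, Igfbp3 had the most, with 32 CG dinucleotides (4.6%), and Igf1 had 5 (55.6%). The letters TATAAA, searched on both strands, stood 28 bases before the start of Igfbp4 and on the opposite strand in the Igfbp6 window, whose start was also not matched to a GENCODE transcript, and in 12.4% of all windows. The order of the members by CG dinucleotides was thus not the order of their levels, as both Igfbp2 windows had more than that of Igfbp5.

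Total counts were 22437277 to 32595083 per library, and a count of 0 allows up to 3 counts, or 0.092 to 0.134 CPM (counts per M counts of a library), for counting error only. The libraries differed in skeletal muscle transcripts, whose 8 markers summed to between 2.39 and 4039 CPM, lowest in iFAXLKO replicate 8 and next lowest in WT replicate 5. The defining markers of brown adipocytes were abundant (8405 to 15400 CPM in sum), and no marker of lymphocytes or hepatocytes passed the filter on low counts. Axl, the gene that the Cre should delete, showed no fall with the label. It was at 33.2 ± 6.17 CPM (SD, n = 8) in the libraries labelled iFAXLKO against 27.8 ± 3.83 CPM (n = 5), a log2 fold change of 0.25 ± 0.13 (SE) with an adjusted p of 0.699 in the quasi-likelihood test of edgeR. The counts cover the whole gene and do not separate the floxed exons. Every direction given here is therefore between libraries as labelled. Adipoq, whose promoter region the Cre transgene carries, was at 1122 ± 132 CPM (n = 8) against 709 ± 92.8 CPM (n = 5), with an adjusted p of 0.0118 in the same test and no overlap between the groups.

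Compared per length, the members spanned a wide range in this tissue. The unit is TPM, counts per kilobase of merged exons scaled to the same total in every library, as a mean ± SD over all 13 libraries. Igfbp7, which binds IGFs only weakly and is deposited around blood vessels, led with 135 ± 26.8 TPM and was above Igfbp5 in 13 of 13 libraries, by 3.15-fold. Igfbp5, which binds the extracellular matrix, followed with 43.0 ± 12.2 TPM and was above Igfbp6 in 9 of 13 libraries. Igfbp6, which prefers IGF2 as its ligand, was at 33.6 ± 11.3 TPM and above Igfbp3 in 10 of 13. Igfbp3, the main carrier of IGF in blood, was at 25.8 ± 9.84 TPM and above Igfbp4 in 9 of 13. Neighbours from Igfbp5 down to Igfbp4 thus overlapped, and their order changed from library to library. Igfbp4, an inhibitory binding protein that pregnancy-associated plasma protein A (PAPP-A) cuts, was at 20.3 ± 4.62 TPM and above Igf2 in 13 of 13 libraries.

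The ligands stood below every measured binding protein but Igfbp2. Igf2 was at 5.64 ± 1.25 TPM and above Igf1, at 2.97 ± 1.31 TPM, in 12 of 13 libraries. The exons of Igf1 add up to 9904 bases because of long alternative 3′ ends, which lowers its level per length where shorter forms are used. Igfbp2 was at 0.0875 ± 0.0722 TPM, below Igf1 in 13 of 13 libraries.

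**Figure D1:**
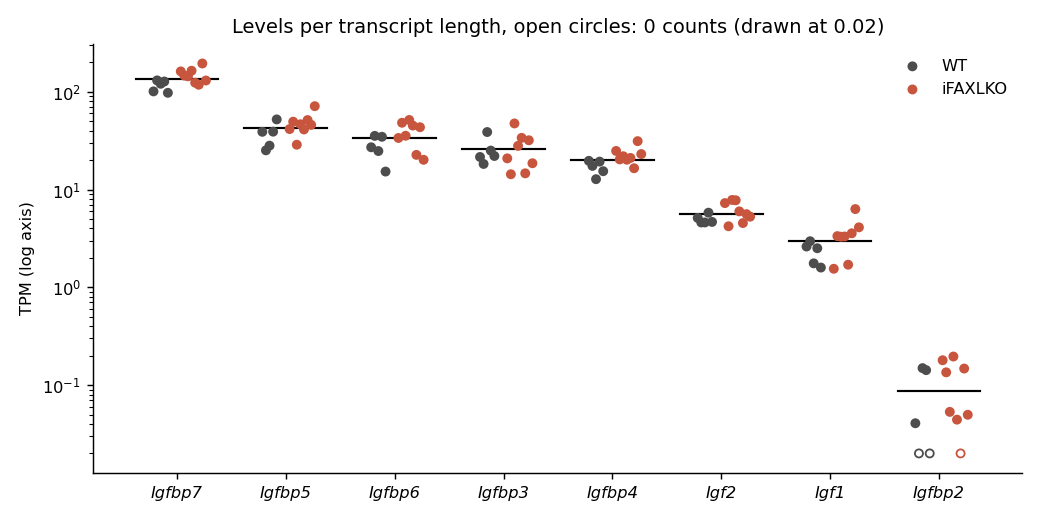
Level per length (TPM, log axis) of the 8 members in each library, one point per library, WT and iFAXLKO in separate colours. Igfbp7 lies above the other members in all 13 libraries, Igfbp3 to Igfbp6 overlap, and Igfbp2 lies far below the ligands.

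As parts of the sum of the 6 binding proteins per length, the mix differed little between the groups. Igfbp7 made up 52.4 ± 3.33% of the sum in the libraries labelled iFAXLKO (n = 8) and 51.9 ± 3.89% in WT (n = 5). Igfbp5 made up 17.1 ± 5.44% and 16.8 ± 5.83%, and Igfbp6 13.2 ± 3.49% and 12.2 ± 3.12%. Igfbp3 was at 9.27 ± 3.89% against 11.3 ± 3.45%, and Igfbp4 at 7.95 ± 0.869% against 7.65 ± 1.34%. Each of these differences was smaller than the SD within either group. The sum of the binding proteins was 30.2 ± 4.00 times the sum of both ligands in the libraries labelled iFAXLKO and 30.8 ± 3.20 times in WT.

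The comparison of the genotypes asked whether the local IGF genes of iBAT differ between mice labelled as lacking adipocyte AXL and their controls on HFD. No member passed the adjusted limit of 0.05 in the edgeR test: 0 of the 7 members that passed the filter on low counts (above 1 CPM in 5 libraries or more), where 17 of all 13360 genes tested (0.127%) passed it, 13 with a positive (0.0973%) and 4 with a negative fold change (0.0299%), and 12 by at least 2-fold (0.0898%). DESeq2 and limma-voom also called 0 members. At an unadjusted p under 0.05 there were 2 members, Igfbp4 and Igfbp7, both higher in the libraries labelled iFAXLKO, against 986 of all genes (7.38%), of which 513 (3.84%) were higher and 473 (3.54%) lower. The fitted log2 fold change was above 0 for 7 of 7 tested members, with a range of 0.02 to 0.49 and a median of 0.31, whereas 46.4% of all genes tested were above 0 and their median was -0.01. The lowest of the 7, Igfbp3 at 0.02 ± 0.28 (SE), had no settled sign, which turned in 6 of the 13 fits without a single library. None of the members had groups that did not overlap, which 0.434% of all genes had. In a bulk tissue such as this, fewer cells of a type and less RNA per cell cannot be told apart.

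**Figure D2:**
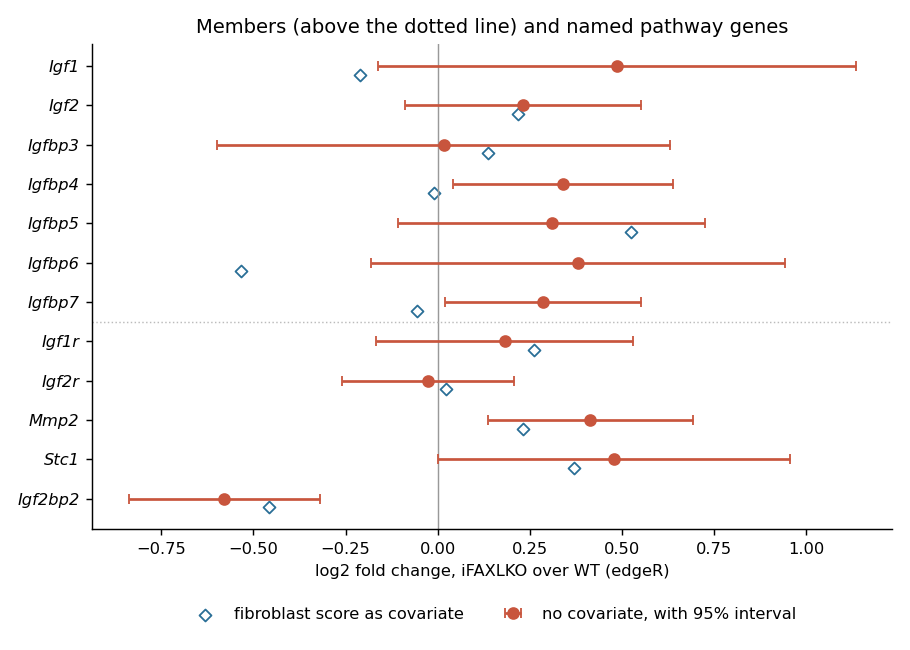
Log2 fold change (libraries labelled iFAXLKO over WT) of the tested members and, below a dotted line, of Igf1r, Igf2r, Mmp2, Stc1 and Igf2bp2. Mmp2, Stc1 and Igf2bp2 are shown because their unadjusted p by edgeR was under 0.05, and the other pathway genes are not drawn. Filled points have 95% intervals from the edgeR fit without a covariate, and a vertical line is at 0. Open diamonds, without intervals, are from the fit with the fibroblast score as a covariate. The filled points of the 7 members lie between 0.02 and 0.49, and the intervals of Igfbp4 and Igfbp7 alone among them lie above 0.

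Beside the members, markers of other cell types had these values. The marker lists were chosen with earlier results of these data known. Counts of markers at an unadjusted p under 0.05 therefore describe the lists and cannot serve as a test. The same holds for the fibroblast score, which was built from one of them. Among all genes tested, 3.84% had such a p together with a positive fold change. All 8 fibroblast markers had an unadjusted p under 0.05 and were higher in the libraries labelled iFAXLKO, with a median log2 fold change of 0.59 and none past the adjusted limit. Their summed level was 301.9 to 509 CPM in the libraries labelled iFAXLKO and 208 to 319 CPM in WT. All 6 macrophage markers were likewise higher at an unadjusted p under 0.05 (median 0.39), with sums of 79.4 to 141 CPM and 64.7 to 94.4 CPM. Endothelial markers gave 1 of 6 at that level (689 to 1084 CPM against 585 to 846 CPM) and mural markers 0 of 6 (647 to 820 CPM against 512 to 787 CPM). The 8 brown adipocyte markers had log2 fold changes below 0, 1 of them with an unadjusted p under 0.05 (8405 to 12798 CPM against 10427 to 15400 CPM). None of the markers in these lists was at 0 in every library. With the fibroblast score, the mean log2 CPM of its markers, as a covariate, the log2 fold changes became -0.21 for Igf1, -0.01 for Igfbp4, -0.53 for Igfbp6 and -0.06 for Igfbp7, while Igf2 (0.22), Igfbp3 (0.14) and Igfbp5 (0.52) were above 0. No member passed the adjusted limit there either. That score was above the WT mean in 8 of 8 libraries labelled iFAXLKO, so that score and label could be separated only in part. The part of these cell types in the members' differences was not tested, as this fit cannot decide it.

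Of the ligands, Igf1 (ENSMUSG00000020053, chromosome 10, 87858265 to 87937042, plus strand) ran from 6.72 to 25.9 CPM with a median of 14.5 in the libraries labelled iFAXLKO. The WT libraries were at 11.3, 15.4, 7.46, 10.9 and 7.14 CPM. The groups overlapped widely, since the lowest library of all was labelled iFAXLKO and the highest was iFAXLKO replicate 7. Their means were 14.6 ± 5.97 CPM (SD, n = 8) and 10.4 ± 3.37 CPM (n = 5), with 6 of 8 above the WT mean, a log2 fold change of 0.49 ± 0.29 (SE) and an adjusted p of 0.752 by edgeR. The 95% interval reached from -0.16 to 1.13, and leaving out single libraries gave 0.32 to 0.67. Library names carry numbers that fall into a lower range (6 libraries, 4 of them labelled iFAXLKO) and an upper range (7 libraries, again 4 of them), whose meaning the labels do not give. Within the lower and upper ranges the difference of mean log2 CPM was -0.16 and 0.88, so the direction did not hold in the lower range.

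Igf2 (ENSMUSG00000048583, chromosome 7, 142650766 to 142666816, minus strand), which is expressed from the paternal allele in most tissues, varied less. It ran from 10.6 to 19.7 CPM with a median of 14.5 in the libraries labelled iFAXLKO and was at 12.8, 13.8, 11.3, 14.5 and 12.1 CPM in WT. All WT libraries lay inside the range of the other group, 4 libraries labelled iFAXLKO lay above it and 1 below. Means were 15.1 ± 3.42 CPM (n = 8) and 12.9 ± 1.30 CPM (n = 5), which gave a log2 fold change of 0.23 ± 0.15 (SE) with an adjusted p of 0.756 by edgeR and differences of 0.30 and 0.09 in the lower and upper ranges of library numbers. The counts cannot be assigned to Igf2 alone. An overlapping gene model on the same strand, Gm49394 (ENSMUSG00000115302), had 96.7% of the counts of Igf2 and followed it with r = 0.999 across the 13 libraries, and reads of the shared exons cannot be told apart. Per length, the ratio of Igf1 to Igf2 was 0.603 ± 0.314 in the libraries labelled iFAXLKO and 0.462 ± 0.119 in WT. This difference was smaller than the SD of the first group and larger than that of WT, and it was not tested.

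Among the binding proteins Igfbp7 (ENSMUSG00000036256, chromosome 5, 77349240 to 77408041, minus strand) had the smallest relative spread. Its lowest, median and highest levels were 64.8, 77.4 and 97.5 CPM in the libraries labelled iFAXLKO. WT libraries were at 53.2, 83.0, 62.5, 67.3 and 53.4 CPM, and WT replicate 2 was above 5 of the 8 others, so the groups overlapped. The means were 77.9 ± 10.8 CPM (n = 8) and 63.9 ± 12.3 CPM (n = 5), and 8 of 8 libraries labelled iFAXLKO were above the WT mean. The log2 fold change was 0.29 ± 0.12 (SE) with a 95% interval of 0.02 to 0.55, an unadjusted p of 0.0313 and an adjusted p of 0.625 by edgeR. A 2-sided exact permutation test on log2 CPM gave p = 0.0458, one of 8 such tests, where 1287 splits allow no p below 0.000777, and on the CPM scale the same exact test gave p = 0.0575. The difference was 0.28 in both ranges of library numbers. At its 3′ end, from 77349240 to 77349324 only, Igfbp7 overlaps Polr2b, a gene of the other strand at 41.9 CPM over its whole length. The strand setting of the counting is not given in the sources used here.

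Igfbp4 (ENSMUSG00000017493, chromosome 11, 99041244 to 99054392, plus strand) ran from 33.2 to 57.2 CPM with a median of 42.5 in the libraries labelled iFAXLKO. In WT it was at 37.8, 40.5, 24.1, 37.3 and 30.8 CPM. Of the libraries labelled iFAXLKO, 5 of 8 were above the highest WT library and none was below the lowest, yet the groups overlapped between 33.2 and 40.5 CPM. Means were 43.1 ± 7.24 CPM (n = 8) and 34.1 ± 6.62 CPM (n = 5), a log2 fold change of 0.34 ± 0.14 (SE) with a 95% interval of 0.04 to 0.64. The unadjusted p was 0.0244 and the adjusted p 0.599 by edgeR, and the exact permutation test gave p = 0.0389 on log2 CPM and 0.0443 on the CPM scale. The difference was 0.09 in the lower and 0.52 in the upper range of library numbers, where WT replicate 3, the lowest library, is.

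**Figure D3:**
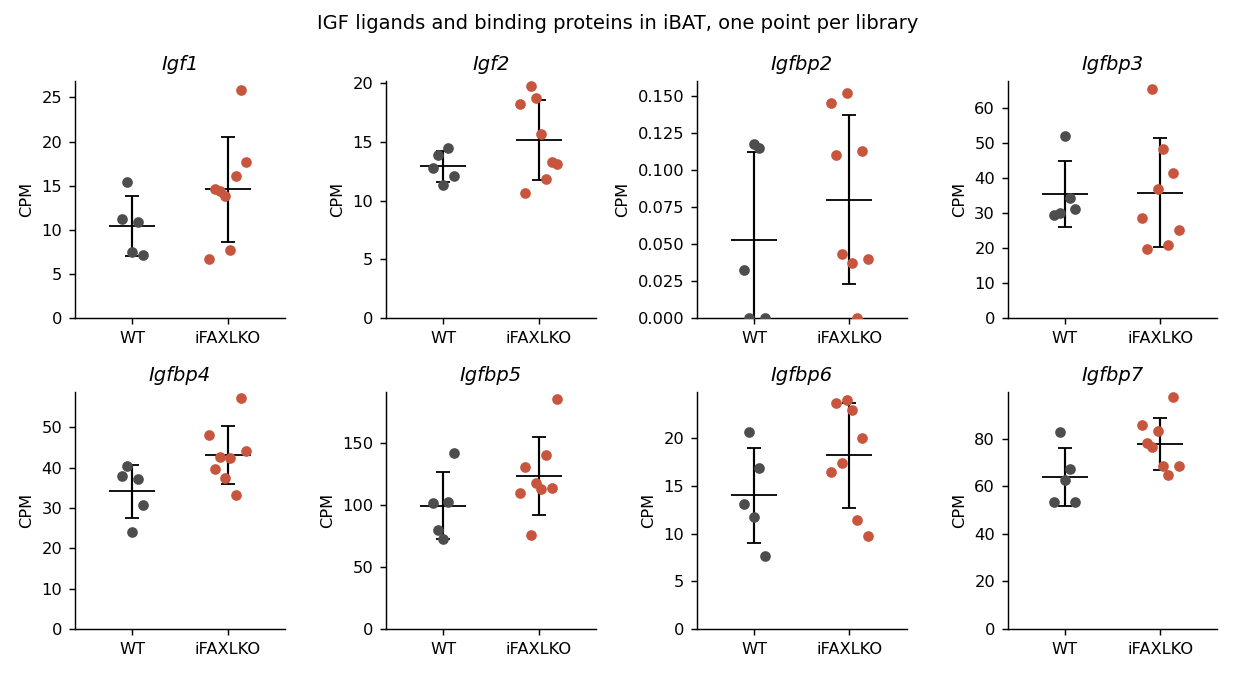
Level of each member (CPM) in every library, one panel per gene, with the points of the 8 libraries labelled iFAXLKO and the 5 WT libraries and the mean and SD of each group. The groups overlap in all 8 panels, and 8 of 8 iFAXLKO points lie above the WT mean in Igfbp7, 7 in Igfbp4 and Igfbp5, 6 in Igf1, Igf2 and Igfbp6, and 4 in Igfbp3.

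Igfbp5 (ENSMUSG00000026185, chromosome 1, 72857932 to 72874884, minus strand) was at 76.0, 116 and 186 CPM as lowest, median and highest in the libraries labelled iFAXLKO, and at 102, 79.5, 72.3, 103 and 142 CPM in WT. The highest library of each group, iFAXLKO replicate 8 and WT replicate 5, was also its library of lowest skeletal muscle score. Means were 123 ± 31.4 CPM (n = 8) and 99.6 ± 27.1 CPM (n = 5), so the log2 fold change was 0.31 ± 0.19 (SE) and the adjusted p by edgeR 0.753. Without both libraries, left out after seeing the data, the log2 fold change was 0.36 with an adjusted p of 0.95 by edgeR. The unadjusted p by edgeR was 0.031 there and 0.123 with all libraries. Within the lower and upper ranges the differences were 0.24 and 0.41.

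Igfbp6 (ENSMUSG00000023046, chromosome 15, 102144362 to 102149511, plus strand) showed the opposite order of these libraries. It ran from 9.73 to 24.1 CPM with a median of 18.7 in the libraries labelled iFAXLKO and was at 13.1, 20.7, 11.8, 16.8 and 7.69 CPM in WT. The lowest library of each group was again iFAXLKO replicate 8 and WT replicate 5. Means were 18.2 ± 5.50 CPM (n = 8) and 14.0 ± 4.95 CPM (n = 5), with 6 of 8 above the WT mean, a log2 fold change of 0.38 ± 0.26 (SE) and an adjusted p of 0.794 by edgeR. It was 0.32 without both libraries, and 0.28 and 0.38 within the lower and upper ranges.

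Igfbp3 (ENSMUSG00000020427, chromosome 11, 7206086 to 7213923, minus strand) had nearly equal group means. It had a lowest level of 19.8, a median of 32.7 and a highest of 65.3 CPM in the libraries labelled iFAXLKO and was at 29.4, 30.0, 51.9, 34.2 and 31.2 CPM in WT. The libraries labelled iFAXLKO reached both below and above all WT libraries, with 4 of 8 under the lowest. Means were 35.8 ± 15.6 CPM (n = 8) and 35.4 ± 9.44 CPM (n = 5), so the log2 fold change was 0.02 ± 0.28 (SE) and the adjusted p by edgeR 0.996, and the 95% interval of -0.60 to 0.63 leaves room for a change of either sign. The direction turned in 6 of the 13 fits that left out a single library (-0.16 to 0.21).

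Igfbp2 (ENSMUSG00000039323, chromosome 1, 72824503 to 72852474, plus strand), which preadipocytes of white fat are known to secrete, was barely detectable. Its counts were 4, 3, 1, 5, 1, 0, 3 and 1 in iFAXLKO replicates 1 to 8 and 1, 0, 4, 3 and 0 in WT replicates 1 to 5. The means were 0.0801 ± 0.0569 CPM (n = 8) and 0.0531 ± 0.0593 CPM (n = 5), under the level that a count of 0 allows. Only the libraries with 4 or 5 counts were above the 3 counts of that level, so no fold is given. Its neighbour Igfbp5 lies tail to tail with it, 5.46 kb away, and was among the most abundant members.

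Across libraries, with the group means subtracted, the 21 pairs of tested members had Pearson correlations of log2 CPM from -0.69 to 0.65 with a median of 0.16. None passed the adjusted limit. The most negative pair was Igfbp3 with Igfbp5, with r = -0.69 (permutation p = 0.0094, adjusted 0.182) and rho = -0.69 (p = 0.0118, adjusted 0.247) over 13 libraries. Without the 2 libraries farthest from the median r was -0.39, and within the lower and upper ranges it was -0.86 and -0.78. The most positive was Igfbp6 with Igfbp7, with r = 0.65 (permutation p = 0.0173, adjusted 0.182) and rho = 0.59 (p = 0.0368, adjusted 0.372). There r was 0.56 without 2 libraries and 0.62 in both ranges.

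Among 36 relations of members and H19 with marker scores, a set added after seeing the data, 3 had an adjusted p under 0.05 for r. Igfbp6 rose with the fibroblast score (r = 0.768, permutation p = 0.0029, adjusted 0.0348, and rho = 0.78, p = 0.00262, adjusted 0.0472, n = 13). This r was 0.84 without the 2 libraries farthest from the median and 0.786 and 0.768 within the ranges. Igfbp6 also rose with the macrophage score (r = 0.773, permutation p = 0.00231, adjusted 0.0348), while its rho of 0.681 (p = 0.0128) had an adjusted p of 0.145. Without 2 libraries that r was 0.80, and it was 0.80 and 0.87 within the ranges. The fibroblast and macrophage scores shared their highest and lowest library in each group. These were iFAXLKO replicates 7 and 6 and WT replicates 4 and 5, so the relations of Igfbp6 with both scores are not separate findings. The other relation was that of H19 with the skeletal muscle score. Relations of Igfbp5 and Igfbp6 with the skeletal muscle score (r = -0.556 and 0.646, adjusted 0.21 and 0.148) rested on the muscle-poor libraries, since without the 2 libraries farthest from the median they were 0.282 and 0.01.

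**Figure D4:**
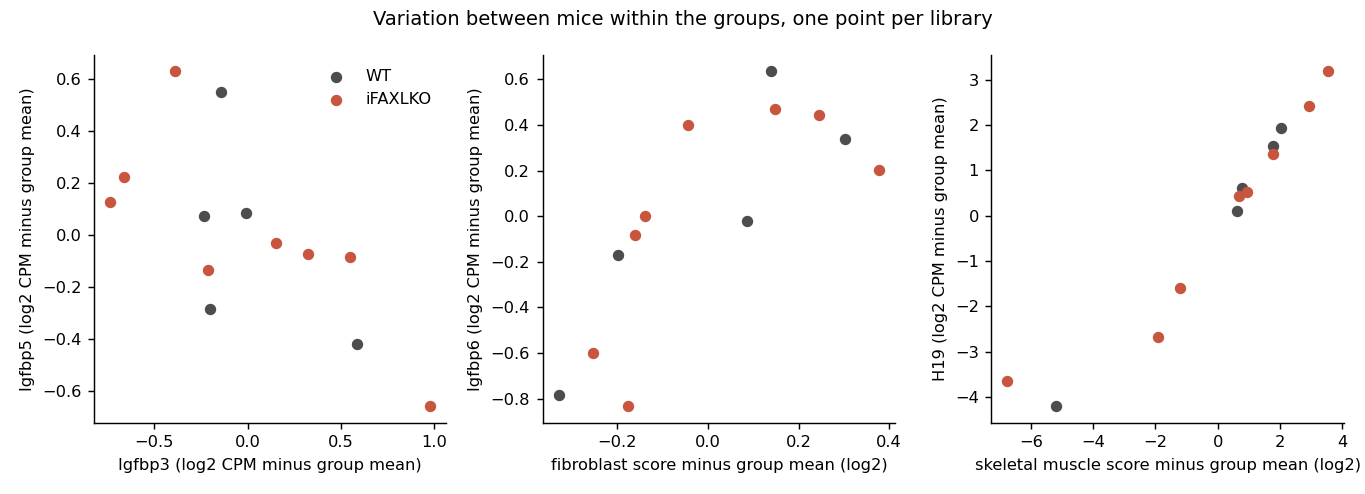
Plots of log2 values with the group mean subtracted, one point per library: Igfbp5 against Igfbp3, Igfbp6 against the fibroblast score, and H19 against the skeletal muscle score. Igfbp5 falls as Igfbp3 rises (r = -0.69), Igfbp6 rises with the fibroblast score (r = 0.768) and H19 rises with the muscle score (r = 0.963).

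The genes whose pattern across the 13 libraries was most like that of a member, group means subtracted, are given as a description, the highest r among 10333 genes of at least 5 CPM. The highest of so many r over 13 libraries is large by selection alone, and none of them was tested. For Igfbp3 these were Gmpr (r = 0.973) and the endothelial co-receptor Eng (0.945). With the endothelial score of 6 markers, Igfbp3 had r = 0.445 (permutation p = 0.128, adjusted 0.328). Igfbp7 was followed by Tm2d3 (0.969) and Prr5 (0.925), and Igf1 by Fpgs (0.943) and Fra10ac1 (0.892). The closest to Igfbp5 were Ggcx (0.931) and Gm21969 (0.920). For Igfbp6 they were Cyba (0.918), a subunit of the phagocyte oxidase, and Fxyd5 (0.903). Igfbp4 had the lowest values of this kind, with Ube2n (0.837) and the matrix gene Aebp1 (0.816). Beside Gm49394 the closest to Igf2 was Srgn (0.881), the proteoglycan of secretory granules.

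Other genes of the IGF pathway were taken from a list of 30 receptors, adaptors, proteases and their inhibitors, RNA-binding proteins and members of the growth hormone axis. Of these 24 passed the filter, 16 with a log2 fold change above 0 and 8 below, with a median of 0.07 (range -0.58 to 0.48). None passed the adjusted limit of the edgeR test. At an unadjusted p under 0.05, Mmp2 and Stc1 were higher and Igf2bp2 was lower in the libraries labelled iFAXLKO, a share of 3 in 24 beside 7.38% of all genes. Of the 6 below the filter, Igfbp1, the liver binding protein, Igfbpl1 and Igf2bp1 were at 0 counts in every library, and Pappa, whose protein cuts IGFBP4, was at 0.989 ± 0.562 CPM against 0.698 ± 0.328 CPM. Pappa2 and Igf2bp3 reached at most 7 and 2 counts per library.

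Both receptors were present in all libraries. Igf1r was at 19.1 ± 2.60 CPM (n = 8) in the libraries labelled iFAXLKO and 16.8 ± 4.89 CPM (n = 5) in WT, so the log2 fold change was 0.18 ± 0.16 (SE) and the adjusted p by edgeR 0.871. The difference was 0.68 in the lower and -0.11 in the upper range of library numbers. Igf2r was at 82.7 ± 3.48 CPM and 84.3 ± 16.8 CPM, so the log2 fold change was -0.03 ± 0.11 (SE) and the adjusted p by edgeR 0.982, and its direction turned in 3 of 13 fits without a single library.

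Of the genes acting on binding proteins, Mmp2, a matrix metalloproteinase that can cut several IGFBPs, was at 25.7 ± 3.46 CPM (n = 8) against 19.3 ± 4.27 CPM (n = 5), above the WT mean in 8 of 8. Its log2 fold change was 0.41 ± 0.13 (SE), with an unadjusted p of 0.00501 and an adjusted p of 0.462 by edgeR. With the fibroblast score as a covariate the value was 0.23. Stc1, which encodes stanniocalcin, an inhibitor of PAPP-A, was at 1.40 ± 0.378 CPM against 0.999 ± 0.229 CPM. Its log2 fold change was 0.48 ± 0.22 (SE), with an unadjusted p of 0.0432 and an adjusted p of 0.652 by edgeR.

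The pathway gene with the smallest p was Igf2bp2 (ENSMUSG00000033581, chromosome 16, 22059009 to 22163299), an RNA-binding protein known to bind Igf2 mRNA and, in brown fat, to restrain the translation of Ucp1 mRNA. Its lowest, median and highest levels were 3.67, 4.21 and 5.32 CPM in the libraries labelled iFAXLKO, and WT libraries were at 6.39, 5.62, 6.98, 5.89 and 7.81 CPM. All 8 were below the lowest WT library, so the groups did not overlap, as for 0.434% of all genes. The log2 fold change was -0.58 ± 0.12 (SE), from 6.54 ± 0.882 CPM (n = 5) to 4.38 ± 0.606 CPM (n = 8), with an unadjusted p of 0.000174 and an adjusted p of 0.103 by edgeR. DESeq2 called it (adjusted p = 0.00269), as did limma-voom (adjusted p = 0.0158), and over all fits run the adjusted p reached from 0.00269 to 1. The difference was -0.56 and -0.54 in the lower and upper ranges. Igf2bp2 lies 0.98 Mb from Adipoq, the gene whose region the Cre transgene was built from, and the part of that position in the difference was not tested.

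H19, the maternally expressed noncoding RNA beside Igf2, was singled out after its values were seen. It ran from 0.917 to 113 CPM with a median of 17.2 in the libraries labelled iFAXLKO and was at 61.7, 47.0, 24.4, 17.1 and 0.802 CPM in WT. The lowest library of each group was the muscle-poor one, iFAXLKO replicate 8 and WT replicate 5. With group means subtracted its r with the skeletal muscle score was 0.963 (permutation p = 1e-05, the smallest that 100000 orders can give, adjusted 0.00036) and rho was 0.989 (p = 1e-05, adjusted 0.00036). It was 0.995 without the 2 libraries farthest from the median, and 0.996 and 0.975 within the ranges. Igf2, 72.62 kb away, had a range of 1.85-fold over the same libraries.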

How the data were processed

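Counts of RNA-seq reads per gene were analysed for 13 iBAT libraries, 8 iFAXLKO and 5 WT, grouped by their labels. The deposited values are raw counts per Ensembl gene. Submitters' processing notes name bcl2fastq 2.20, fastp 0.20.0, STAR 2.7.4a, DESeq2 and GRCm38.p6, while the methods of the study name Trim Galore and hisat2. The labels give polyadenylated RNA and the methods rRNA depletion. The counter is not given in the sources used here. Without a known strand setting, overlapping genes cannot be separated.

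A gene was tested when it exceeded 1 CPM in 5 or more libraries (13360 of 42416),  with the quasi-likelihood F test of edgeR 4.0.16 (R 4.3.3, TMM factors, robust) with Benjamini-Hochberg adjustment over all of them. CPM were taken over the counts in the genes tested and scaled by TMM, and log2 CPM has a prior count of 2. SE is the size of the log2 fold change divided by the square root of F, and 95% intervals use 11 residual degrees of freedom and are approximate. DESeq2 1.42.0, limma 3.58.1 (voom), other scalings and filters, covariates and leaving out libraries were alternatives. Scripts were tested on simulated data. Correlations used 100000 orders (scipy 1.17.1). Depth was 22437277 to 32595083 counts, which sets the precision of low genes, and since reads carried no molecular identifiers, floors cover counting error only. Positions are from GENCODE M21 (GRCm38). Symbols matched 42263 identifiers, and sequences are from RefSeq, GRCm38.p6, where 8 of 8 members had a window.

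The members and lists were chosen with earlier results of these data known. All 8 members are named throughout. Pathway genes are named where an unadjusted p was under 0.05, with Igf1r, Igf2r and Igfbp1 in any case, and Axl and Adipoq as checks of the labels. The 2 genes most like each tested member are also named. Pappa, Pappa2, Igfbpl1, Igf2bp1, Igf2bp3 and H19 were added after their values were seen. Labels number the libraries as replicates without saying that each is a separate mouse, so p-values measure the spread between these libraries. The lowest chi-square between libraries of a group was 16.56 per degree of freedom, and none was a duplicate. Of the marker lists, Schwann cells had 1 of 4 tested genes with an unadjusted p under 0.05, lymphocytes and hepatocytes had 0 tested, and skeletal muscle had 0 of 8.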

Additional observations from a re-analysis of the deposited data

Results flagged for a closer look

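Igfbp3 in WT replicate 3 stood apart from the other WT libraries. It was at 51.9 CPM, the nearest other WT library was at 34.2 CPM, and this gap was 0.784 of the range of the group, above the critical value of Dixon's test of 0.71 for 5 samples. This was the one such library among 26 groups of values examined, and chance flags about 1 in 20 groups.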

How the results depend on the processing

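No member passed the adjusted limit in any of the 13 fits without a single library or the 11 other fits. Over all genes the number called was 17 as reported, 67 with DESeq2, 7 with the fibroblast score as a covariate, 11 without iFAXLKO replicate 8 and WT replicate 5 (chosen after seeing the data), and 14 to 19 without single libraries. Of the pathway genes, DESeq2 and limma-voom each called 1, Igf2bp2.

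Directions turned for the following log2 fold changes, none of them called, and the cause was not tested. With the fibroblast score as a covariate they were -0.21 for Igf1, -0.012 for Igfbp4, -0.53 for Igfbp6, -0.057 for Igfbp7 and 0.022 for Igf2r. Within the lower range of library numbers they were -0.16 for Igf1 and 0.17 for Igf2r, and within the upper range -0.25 for Igfbp3 and -0.11 for Igf1r. Igfbp3 was at -0.16 with limma-voom, and its exact permutation test had a difference of -0.06 on log2 CPM (p = 0.838) and of 0.432 on the CPM scale. Igf2r was at 0.015 without the muscle-poor libraries. Without single libraries Igfbp3 ranged from -0.16 to 0.21 and Igf2r from -0.14 to 0.038, and Igf1, Igf2, Igfbp4, Igfbp5, Igfbp6 and Igfbp7 stayed above 0. Igfbp4 kept an unadjusted p under 0.05 in 11 and Igfbp7 in 9 of those 13 fits.

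The deviations of libraries with the same replicate number correlated with r of 0.392, 0.422, 0.188 and 0.181 for numbers 1 to 4 and -0.614 for number 5, and 2 of 5 numbered iFAXLKO libraries correlated best with their own number, so the numbers were not taken as pairs. A fit with the replicate number as a block called 7 genes and 0 members, with log2 fold changes of 0.12 for Igf1, 0.34 for Igf2, 0.09 for Igfbp3, 0.32 for Igfbp4, 0.15 for Igfbp5, 0.62 for Igfbp6 and 0.31 for Igfbp7. Numbers 6 to 8 exist only for iFAXLKO, so these values rest on numbers 1 to 5. The unadjusted p by edgeR was 0.0362 for Igfbp4, 0.00975 for Igfbp6 and 0.0192 for Igfbp7 (adjusted 0.403, 0.304 and 0.348). Depth limits Igfbp2 and the genes at 0 counts.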
